A study of Homo sapiens with 104 samples.

Results

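Levels of 9 noncoding RNAs were examined in human lymphoblastoid cell lines, B cells made to grow permanently in culture, with and without MNNG. They are MALAT1, NEAT1, GAS5, LINC00486, LINC00944, LINC02097, PAPLN-AS1, DTNB-AS1 and GALNT7-DT. Most were chosen by large changes or differences in these same arrays, so their values are given as a description, with no test. A member is represented by the probe sets (groups of short array probes) that the platform annotation assigns to its symbol alone. There were 27 such probe sets, for 8 of the 9 members. NEAT1 had 0, because all 9 of its probe sets carry a second symbol, and no value is given for it here. All 8 others were among the 13842 genes kept for testing, of 19775 genes with a probe set of their own.

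MNNG is a methylating agent that damages DNA, mainly by adding methyl groups to bases. The series compared MNNG-exposed with untreated cells of a panel of 24 numbered lines, of TK6, an established lymphoblastoid line, and of MT1, a derivative of TK6 that lacks mismatch repair. Each line and treatment had duplicate arrays, 52 with MNNG and 52 untreated. Neither the dose nor the exposure time is given in the sources used here, and nothing says whether duplicates came from separate cultures, so the spread between them may be technical.

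MALAT1 is an abundant nuclear RNA of nuclear speckles, bodies that store splicing factors. It stays largely unspliced, and its 3′ end is made by RNase P, which cuts off a small tRNA-like RNA. NEAT1 is the scaffold of a neighbouring body, the paraspeckle, and GAS5 is a short-lived spliced RNA whose introns hold small nucleolar RNAs. PAPLN-AS1 and DTNB-AS1 are named as antisense to PAPLN and DTNB, and GALNT7-DT as transcribed away from GALNT7. The roles of the 3 LINC RNAs are less settled and are left out.

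In 22 MNNG arrays (21 of the panel and replicate 1 of MT1), AFFX-r2-P1-cre-5_at was below AFFX-CreX-5_at, both of which read the cre control RNA, with differences of -5.91 to -4.96 log2 units. The other 82 arrays had differences of 0.08 to 0.83. The 22 arrays were left out, which kept 27 MNNG arrays and 38 untreated arrays of 19 panel lines, 8 of them with both MNNG arrays, and 1 MNNG array of MT1. Levels are log2(intensity + 16) after quantile normalization, a scale whose lowest possible value is 5, and changes are MNNG minus untreated on this scale. They understate the change of a dim RNA. The TK6 MNNG arrays stood apart. Over the 500 genes that differ most between untreated lines, they correlated at 0.83 with untreated TK6, against 0.92 to 0.99 for every other MNNG array kept and its own line. This was no closer than untreated TK6 to untreated MT1 (0.84), although their best match was still TK6. Every value below that uses MNNG-treated TK6 rests on these arrays, and none could be computed without them. Untreated TK6 levels, and untreated MT1 minus untreated TK6, come from untreated arrays. They share only the normalization and the estimate of error with the others. Of 8 listed B-cell markers 7 had a probe set, with mean levels of 7.53 (BLK) to 12.1 (MS4A1). Of the T and NK cell markers, 6 of 8 had means below 6, with CD3G lowest at 5.30. So had 6 of 8 myeloid and 5 of 8 fibroblast and epithelial markers, but CD163 (7.68) and KRT8 (7.55) had means above that of BLK. Single lines departed from these means. NKG7, an NK cell marker, was at 9.09 and 9.05 in untreated TK6. BLK was at 5.27 and 5.37 there, and at 5.28 and 5.45 in untreated MT1. MS4A1 was at 6.45 and 6.37 in untreated MT1. The B-cell markers moved with treatment: 0 rose and 4 fell in the panel, and 2 rose and 4 fell in TK6, with CD79A at -1.47 ± 0.16. In MT1 MS4A1 changed by 0.47 ± 0.07. Over all genes, 28.7% rose and 13.8% fell in the panel by the same test, and 21.6% and 19.5% in TK6. The part of these marker changes in the values below was not tested.

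DTNB-AS1 gave the largest difference of any member. It was read by probe set 215565_at, and RefSeq places its start on chromosome 2. The bases from 250 before to 50 after that start are printed with those of LINC02097, because both RNAs were more than 3 log2 units higher in TK6 after MNNG. Capitals mark ACGTG, searched on both strands with CACGTG and TGACGTCA.
DTNB-AS1, GRCh38.p14 chr2:25420843-25421142, plus strand: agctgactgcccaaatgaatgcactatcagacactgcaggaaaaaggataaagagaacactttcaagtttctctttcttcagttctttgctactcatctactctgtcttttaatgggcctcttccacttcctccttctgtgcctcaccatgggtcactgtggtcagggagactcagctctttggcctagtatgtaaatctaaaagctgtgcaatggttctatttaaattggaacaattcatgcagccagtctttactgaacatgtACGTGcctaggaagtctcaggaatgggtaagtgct
LINC02097, GRCh38.p14 chr17:72072083-72072382, plus strand: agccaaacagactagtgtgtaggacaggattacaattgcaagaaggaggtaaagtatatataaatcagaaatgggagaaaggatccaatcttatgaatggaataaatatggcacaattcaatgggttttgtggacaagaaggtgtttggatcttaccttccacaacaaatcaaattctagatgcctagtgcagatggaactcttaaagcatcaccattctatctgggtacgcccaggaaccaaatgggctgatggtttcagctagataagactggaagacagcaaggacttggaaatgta
The DTNB-AS1 window held ACGTG once, close to its 3′ end, and the LINC02097 window held none of the letters searched. ACGTG, which lies within CACGTG, occurred in 21.4% of all 35116 RefSeq promoter windows, CACGTG in 7.26% and TGACGTCA in 1.85%. A p53 half-site, searched by its consensus and added after the values were seen, was in neither window and in 6.63% of all windows. Both windows were rich in A and T, with 43.3% G and C for DTNB-AS1 and 40% for LINC02097. The windows of PAPLN-AS1 and GALNT7-DT held 70.7% and 76.7%, those of MALAT1 73.7% and 46%, and those of GAS5 and LINC00486 37.7% and 43.3%. Windows were given for 7 of the 9 members.

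In TK6, DTNB-AS1 was at 10.18 and 10.24 in the MNNG arrays, against 6.46 and 5.95 in the untreated arrays. The TK6 groups lay far apart and the change was 4.01 ± 0.10 (SE). Standard errors for TK6 and MT1 are estimated from the duplicates of all lines, not from their own alone. The TK6 change was 4.29 without replicate 1 and 3.71 without replicate 2. In MT1 DTNB-AS1 was at 5.54 in the MNNG array, against 5.38 and 5.30 untreated, a change of 0.21 ± 0.13. Both MT1 groups lay near the bottom of the scale. TK6 minus MT1, the difference of the changes, was 3.80 ± 0.17. The panel was bright in both treatments: 27 MNNG arrays spanned 9.36 to 11.29 (median 10.31), against 8.99 to 11.18 (median 10.08) in 38 untreated arrays. The TK6 MNNG arrays thus lay inside the panel's range, while untreated TK6 and all MT1 arrays lay below it.

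Within the panel, DTNB-AS1 was slightly higher after MNNG in 18 of 19 lines, by 0.34 ± 0.05 on average (SE, n = 19 lines). Line changes ran between -0.01 in line 14 and 1.11 in line 4. In line 4 the MNNG array read 10.53, against 9.40 and 9.43 in the untreated arrays. Untreated lines differed more than treatment did, with 9.01 and 8.99 in line 5 and 11.18 and 11.13 in line 20. The 35 pairs of duplicates had an SD of 0.10 with no pair more than 2 log2 units apart, so the duplicates agreed closely. Of these pairs 26 were untreated. Both MNNG arrays were kept in 8 of the 19 lines, and line 4 was not among them. The positive panel mean depended on leaving out the 22 arrays, since with them it was -1.37.

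LINC02097, an intergenic RNA which lies between the protein-coding genes KCNJ2 and SOX9, had 1 probe set, 1561389_at. In TK6 it was at 9.06 and 8.93 with MNNG, against 5.37 and 5.39 untreated. That is a change of 3.62 ± 0.95, starting close to the bottom of the scale. In MT1 it was already high untreated, at 9.34 in the MNNG array, against 8.80 and 8.85 in the untreated arrays (0.51 ± 1.16). Untreated MT1 minus untreated TK6 was 3.44 ± 0.95. Here the 2 related lines differed without treatment, whereas DTNB-AS1 was low in both (-0.87 ± 0.10).

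**Figure D1:**
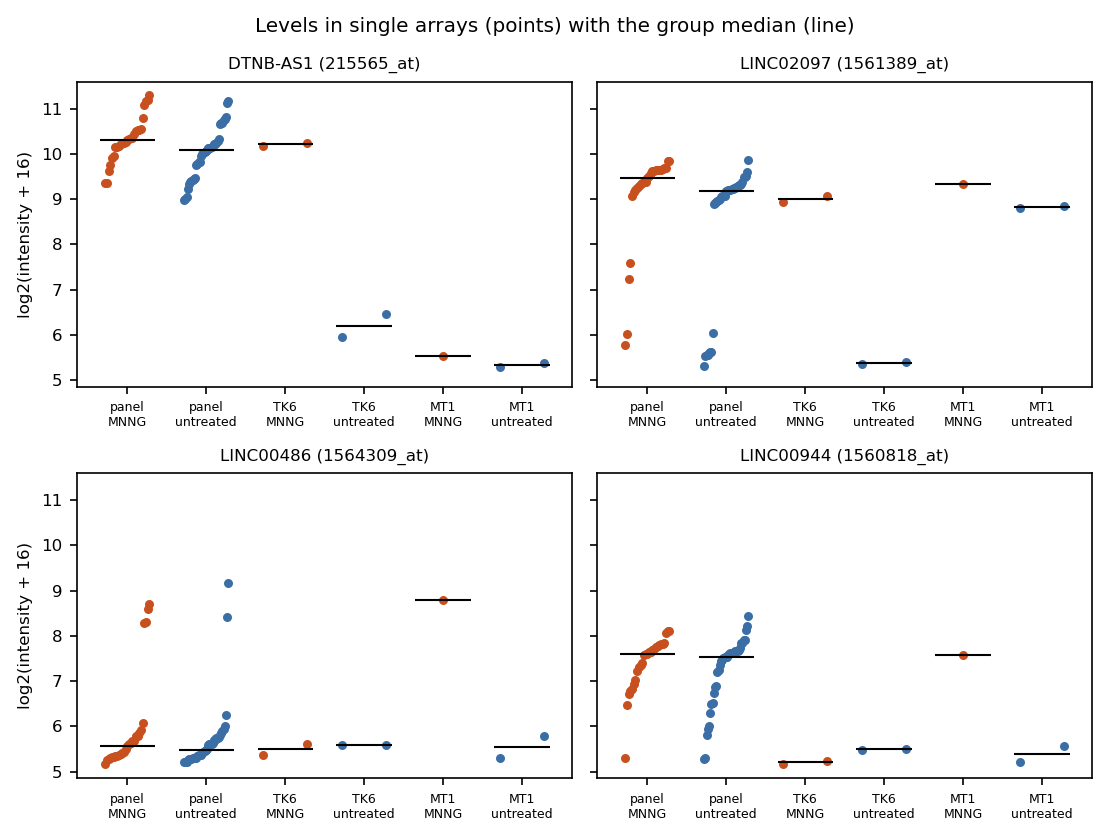
Levels of 4 members, as log2(intensity + 16), in single arrays (points) of the panel, TK6 and MT1, MNNG in orange and untreated in blue, with group medians as lines. DTNB-AS1 and LINC02097 are at 8.93 to 10.24 in the TK6 MNNG arrays and at 5.37 to 6.46 in untreated TK6, while LINC00486 and LINC00944 are high in the MT1 MNNG array only among the TK6 and MT1 arrays.

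The large standard error of LINC02097 came from the panel, where it behaved as present or nearly absent. Most panel arrays lay close to the medians, but levels below 6 occurred in 1 of 27 MNNG arrays and 7 of 38 untreated arrays. The MNNG arrays spanned 5.79 to 9.85 (median 9.46), and the untreated arrays 5.32 to 9.86 (median 9.19). In line 24 the MNNG array was at 9.70, against 5.55 and 5.62 untreated. In line 17 it was the reverse, at 5.79 in the only MNNG array kept, against 9.08 and 9.23 untreated. That array also read PAPLN-AS1 at 5.79 and GALNT7-DT at 5.77. Its correlation with its own untreated line, 0.92, was the lowest outside TK6. In lines 2, 13, 14 and 23 the untreated duplicates themselves disagreed, for example 9.50 and 5.53 in line 23. The mean change was 0.62 ± 0.33, with line changes of -3.37 to 4.13, and 15 of 19 lines were higher after MNNG. It was 0.26 without the 9 arrays whose medians lay near the bottom of the scale, an alternative chosen after seeing the data, and 0.41 with arrays paired by replicate number. Of the 35 duplicate pairs 6 were more than 2 log2 units apart, and the duplicates' SD was 1.03.

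LINC00486 and LINC00944 were high in the MT1 MNNG array and not in TK6. The brightest of 3 probe sets for LINC00486, 1564309_at, read 8.80 in the MT1 MNNG array, against 5.30 and 5.80 in untreated MT1 (3.26 ± 0.86). Its TK6 arrays were at 5.36 and 5.62 with MNNG, against 5.59 and 5.58 untreated (-0.09 ± 0.70). TK6 minus MT1 was -3.35 ± 1.11. The MT1 value rests on 1 array, and its standard error assumes that this array varies like the others.

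Among the panel lines, LINC00486 was at or near the bottom in most arrays. Medians were 5.58 with MNNG (5.16 to 8.71) and 5.49 untreated (5.21 to 9.17). Isolated arrays stood above 8. Line 10 was high in both MNNG arrays, at 8.60 and 8.30, against 5.22 and 5.36 untreated. Line 1 was at 8.71 with MNNG, against 5.47 and 5.70. Line 18 had discordant MNNG duplicates of 8.31 and 5.64, and in lines 4 and 22 a single untreated array was high, at 8.41 and 9.17. The mean change was 0.19 ± 0.25, with 9 lines higher and 10 lower. The other 2 probe sets, 1563082_at and 1563083_s_at, stayed near the bottom with mean levels of 5.35 and 5.44. They showed none of these high arrays, and their MT1 changes were 0.08 ± 0.13 and -0.17 ± 0.19.

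LINC00944 gave the same contrast between probe sets. With 1560818_at the MT1 MNNG array was at 7.58, against 5.22 and 5.57 untreated (2.19 ± 0.34). In TK6 it was at 5.17 and 5.24 with MNNG, against 5.51 and 5.49 untreated (-0.29 ± 0.28), so both groups were near the bottom, and TK6 minus MT1 was -2.47 ± 0.44. The panel expressed it in nearly every line: 5.30 to 8.11 with MNNG (median 7.61), against 5.29 to 8.44 untreated (median 7.53). Lines 3 and 24 were the exceptions without treatment. Line 3 was at 7.31 with MNNG, against 5.30 and 5.29, and line 24 at 7.80, against 5.81 and 5.95. Line 4 went the other way, at 5.30 with MNNG, against 7.66 and 7.62. Each of these lines had 1 MNNG array and untreated duplicates that matched, and the differences exceeded the SD between duplicates, 0.29. Across the panel the mean change was 0.12 ± 0.18. The remaining 3 probe sets had mean levels of 5.39 to 5.79 and MT1 changes of -0.15 to 0.01.

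PAPLN-AS1 and GALNT7-DT were higher after MNNG in most panel lines, and in both some untreated arrays lay near the bottom of the scale. PAPLN-AS1 (1569338_at) spanned 5.79 to 8.78 in MNNG arrays (median 8.13), against 5.11 to 8.69 in untreated arrays (median 7.50). The mean change was 0.82 ± 0.20, with 17 lines higher and 2 lower. It was 0.53 in the 8 lines with both MNNG arrays and 0.55 without replicate 1. In line 10 its MNNG arrays were at 8.78 and 8.33, against 8.40 and 8.43 untreated. In line 13 the MNNG array was at 8.13, against 5.11 and 5.96. In TK6 it was at 7.53 and 7.68 with MNNG, against 6.67 and 6.37 untreated (1.08 ± 0.65), with no overlap. In MT1 it was at 7.44, against 7.25 and 5.55 (1.04 ± 0.79), where the untreated duplicates spanned more than the change.

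For PAPLN-AS1, levels below 6 were read in 8 of 19 untreated replicate 2 arrays and 2 of 19 untreated replicate 1 arrays, and in 1 of 17 and 1 of 10 MNNG arrays of replicates 1 and 2. Among arrays at 6 or above, the medians were 8.20 and 8.06 for the MNNG replicates, against 7.67 and 7.72 for the untreated ones. The second probe set, 1569339_s_at, lay near the bottom at a mean of 5.54 and changed by -0.02 ± 0.04 in the panel.

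GALNT7-DT (1557878_at) showed the pattern most sharply. Its MNNG arrays spanned 5.77 to 8.02 (median 7.67), against 5.44 to 8.07 (median 7.39) untreated, and the mean change was 0.57 ± 0.19, with 16 lines higher and 3 lower. In replicate 1, 1 of 17 MNNG arrays and 1 of 19 untreated arrays were below 6. In replicate 2 it was 2 of 10 MNNG arrays and 10 of 19 untreated arrays. Line 1 illustrates it, with 7.91 in the MNNG array, against 7.47 and 5.68 in the untreated duplicates. Arrays at 6 or above had medians of 7.70 and 7.60 with MNNG, against 7.47 and 7.39 untreated. In the 8 lines with both MNNG arrays the mean change was 0.22, and without replicate 2 it was 0.24.

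The same was seen in TK6 and MT1. GALNT7-DT was at 7.81 and 7.06 in TK6 with MNNG, against 5.39 and 7.49 untreated, so the groups overlapped and the change of 0.99 ± 0.82 was -0.43 without replicate 1 and 2.41 without replicate 2. In MT1 it was at 7.73, against 7.55 and 5.56 (1.18 ± 1.00). Its other probe sets, 1562053_at and 240212_at, were near the bottom, with panel changes of -0.04 ± 0.02 and -0.02 ± 0.03. LINC02097, PAPLN-AS1 and GALNT7-DT were often low in the same array: all 3 were below 6 in 1 of 27 MNNG arrays and 6 of 38 untreated arrays. None was below 6 in 24 MNNG and 25 untreated arrays. The cause of the shared low arrays was not tested.

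**Figure D2:**
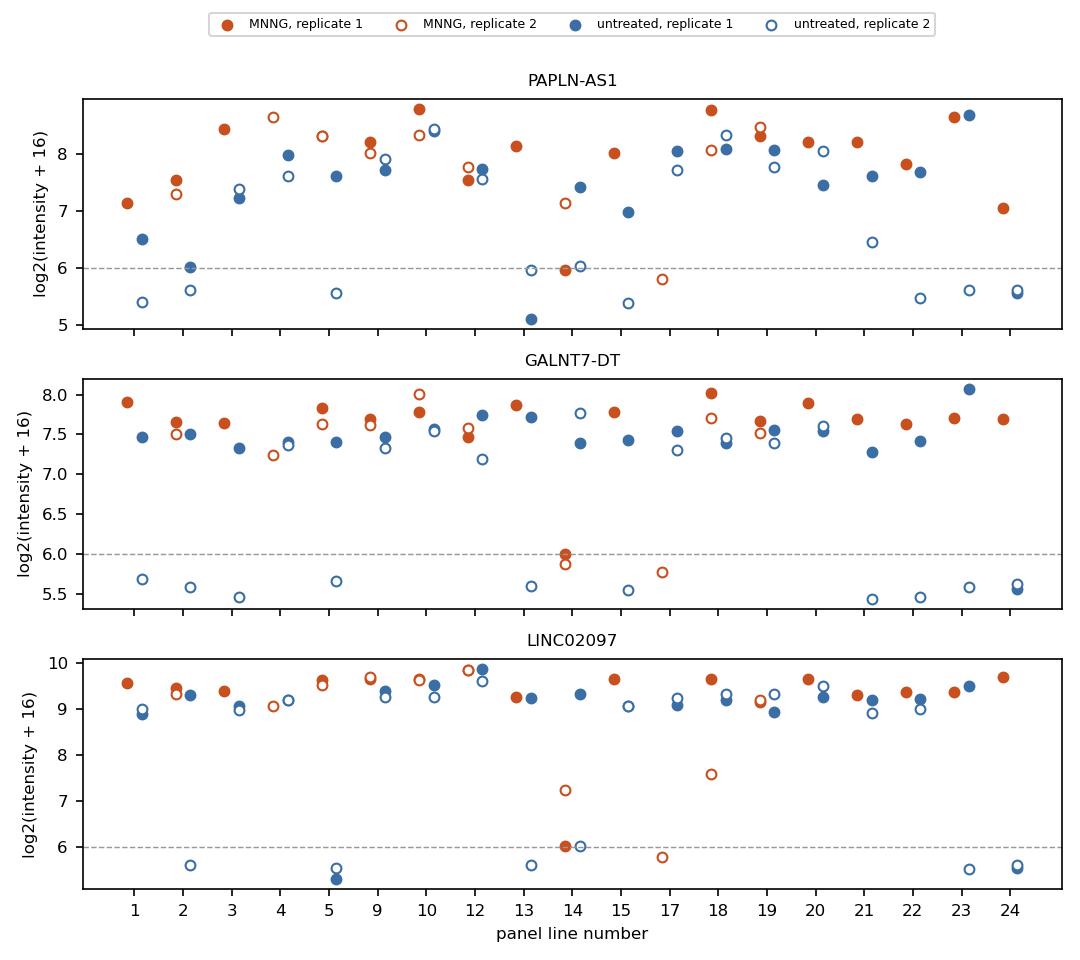
Level, as log2(intensity + 16), of PAPLN-AS1, GALNT7-DT and LINC02097 in each array of the 19 panel lines, MNNG in orange and untreated in blue, replicate 1 filled and replicate 2 open, with a dashed line at 6. For GALNT7-DT, 10 of 19 open blue points (untreated replicate 2) lie below 6, and 1 of 19 filled blue points does.

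MALAT1 was the member with most probe sets, 12, and they did not change alike. In the panel 8 had a mean change below 0 and 4 above, between -2.00 and 0.43, with a median of -0.57. Of the 12, 7 have names ending in _x_at, which marks probes that can bind other sequences, and 4 end in _s_at, which marks probes shared between transcripts. Their positions along the RNA are not in the sources used here, so whether they read different parts of MALAT1 was not tested.

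The brightest, 1558678_s_at, spanned 9.38 to 11.97 in panel MNNG arrays (median 10.88), against 10.40 to 12.56 untreated (median 11.84). It was lower after MNNG in 18 of 19 lines, with a mean change of -0.98 ± 0.10. Line 24 had the largest difference, 9.48 against 10.42 and 12.10 (-1.78). Line 14 had none, with 11.77 and 11.97 against 11.93 and 11.78 (0.01). Untreated duplicates of this probe set were not interchangeable: replicate 2 was higher in 22 of 26 lines, by a median of 0.71. Where only 1 MNNG array was kept it was mostly replicate 1, and with replicate 1 alone on both sides (replicate 2 left out) the mean change was -0.72. In the 8 lines with both MNNG arrays it was -0.58.

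The MALAT1 probe sets with the largest differences were 223940_x_at and 224568_x_at. The level of 223940_x_at spanned 7.36 to 9.61 in MNNG arrays (median 8.64), against 8.40 to 11.61 untreated (median 10.74), a change of -1.92 ± 0.13. The level of 224568_x_at had medians of 8.09 with MNNG and 10.33 untreated, a change of -2.00 ± 0.14. In both, untreated replicate 2 was higher than replicate 1 in 20 of 26 lines, by medians of 0.86 and 0.75, and its part in the change was not tested. Each was lower in 18 of 19 lines, and their line changes correlated at 0.98 over the 19 lines, from the same arrays. The probe sets 224567_x_at (-0.99 ± 0.09) and 226675_s_at (-0.91 ± 0.09) were close to the brightest one, and correlated with each other at 0.88. Smaller differences were read by 227510_x_at (-0.57 ± 0.13), 224559_at (-0.56 ± 0.12) and 223578_x_at (-0.42 ± 0.07). Untreated replicate 2 was higher by medians of 0.71 for 227510_x_at and 0.64 for 224559_at, more than the size of these changes. For 223578_x_at the median was -0.01. Duplicates of 224559_at had an SD of 0.84, and 7 of 26 untreated pairs were more than 2 log2 units apart. The part of the replicates in these changes was not tested.

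Higher mean levels after MNNG were read by 228582_x_at (0.43 ± 0.11), 223577_x_at (0.32 ± 0.07), 224558_s_at (0.20 ± 0.06) and 231735_s_at (0.18 ± 0.07). Of these, 224558_s_at was well reproduced, with an SD between duplicates of 0.09, against 0.51 for 1558678_s_at. It spanned 8.25 to 10.04 with MNNG (median 9.07), against 7.70 to 9.55 untreated (median 8.79), and 15 of 19 lines were higher. Over lines its changes correlated negatively with those of 223578_x_at (-0.62) and 226675_s_at (-0.52). Over all 66 pairs of MALAT1 probe sets the median correlation was 0.28.

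**Figure D3:**
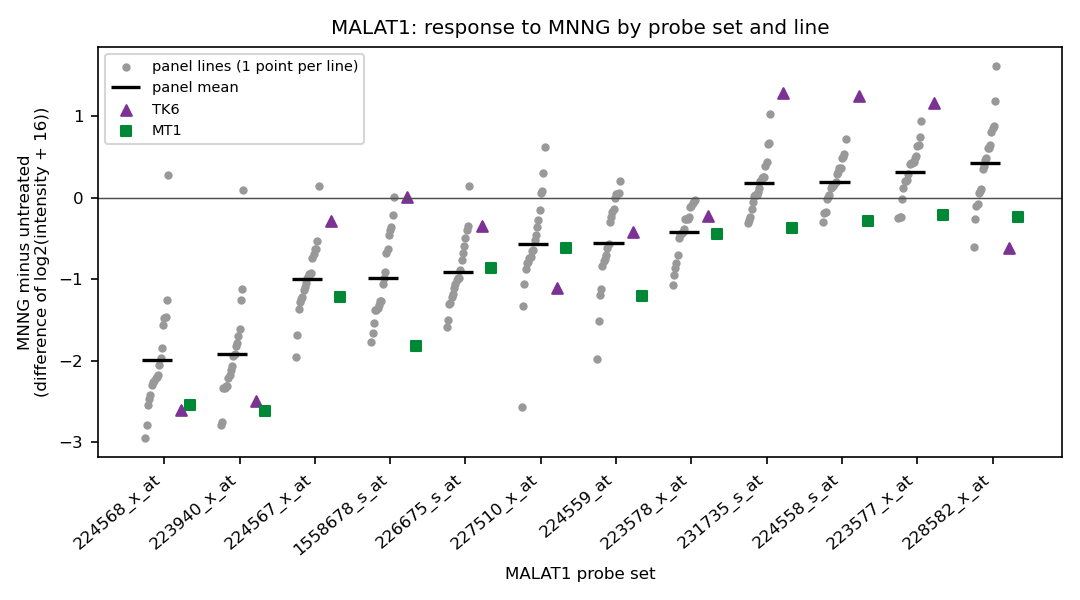
Change with MNNG (MNNG minus untreated, difference of log2(intensity + 16)) for the 12 MALAT1 probe sets in order of their panel mean, with 1 grey point per panel line, the panel mean as a bar, TK6 as triangles and MT1 as squares. The panel means run between -2.00 and 0.43, TK6 is above 1 for 3 probe sets and below -2 for 2, and MT1 is below 0 for all 12.

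TK6 and MT1 split the MALAT1 probe sets further. In TK6, 224558_s_at was at 9.31 and 9.46 with MNNG, against 8.15 and 8.12 untreated (1.25 ± 0.10). The probe sets 231735_s_at (1.28 ± 0.34) and 223577_x_at (1.16 ± 0.29) were also higher there. By contrast, 223940_x_at was at 6.97 and 7.70 with MNNG, against 9.02 and 10.65 untreated (-2.50 ± 0.68), and 224568_x_at changed by -2.60 ± 0.72. The groups were apart in each of these cases. The brightest probe set gave no reading of direction in TK6, at 12.01 and 10.36 with MNNG, against 10.56 and 11.79 untreated, since its duplicates differed by more than its change of 0.01 ± 0.47.

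In MT1 all 12 MALAT1 probe sets had a change below 0, between -2.62 and -0.21. The brightest was at 9.30 with MNNG, against 10.64 and 11.60 untreated (-1.82 ± 0.58). For 224558_s_at the MT1 MNNG array was at 6.65, against 6.82 and 7.04 (-0.28 ± 0.12), and TK6 minus MT1 was 1.53 ± 0.15. For 223940_x_at the changes of both lines were similar in size (TK6 minus MT1, 0.12 ± 1.07). Untreated MT1 and TK6 also differed most for 224558_s_at, by -1.21 ± 0.10. The difference between the responses of TK6 and MT1 thus varied with the MALAT1 probe set.

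A measure of RNA integrity moved with treatment in these arrays. The 5′ minus 3′ log2 difference of the actin gene ACTB had a median of -0.28 in panel MNNG arrays (-0.49 to -0.13), against -0.06 untreated (-0.46 to 0.08). It was lower after MNNG in 18 of 19 lines, by a median change of -0.21. The same measure for GAPDH was close to 0 in both, with medians of -0.01 and 0.03. In TK6 the ACTB difference was -0.46 and -0.32 with MNNG, against -0.34 and -0.19 untreated. In MT1 the ACTB difference was -0.57 with MNNG, against -0.36 and -0.23 untreated. Its part in the MALAT1 differences was not tested. In bulk RNA of this kind, fewer cells of a type and less RNA per cell cannot be told apart.

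GAS5, which is degraded when it is translated and builds up when growth stops, had 1 dim probe set of its own, 1560402_at, with a mean level of 6.09. It spanned 5.95 to 6.73 in panel MNNG arrays (median 6.26), against 5.54 to 6.32 untreated (median 6.00). The change was 0.25 ± 0.05, higher in 18 of 19 lines, and no line changed by more than 0.63. Untreated replicate 2 minus replicate 1 had a median of -0.20, and replicate 2 was higher in 6 of 26 lines. The change was 0.16 without replicate 2 and 0.26 without replicate 1. In the lines with both MNNG arrays it was 0.18. In TK6 it was at 5.88 and 5.87 with MNNG, against 6.28 and 5.81 (-0.17 ± 0.20), and in MT1 at 6.37, against 6.21 and 5.79 (0.37 ± 0.25). The untreated duplicates overlapped or enclosed the MNNG values in TK6.

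**Figure D4:**
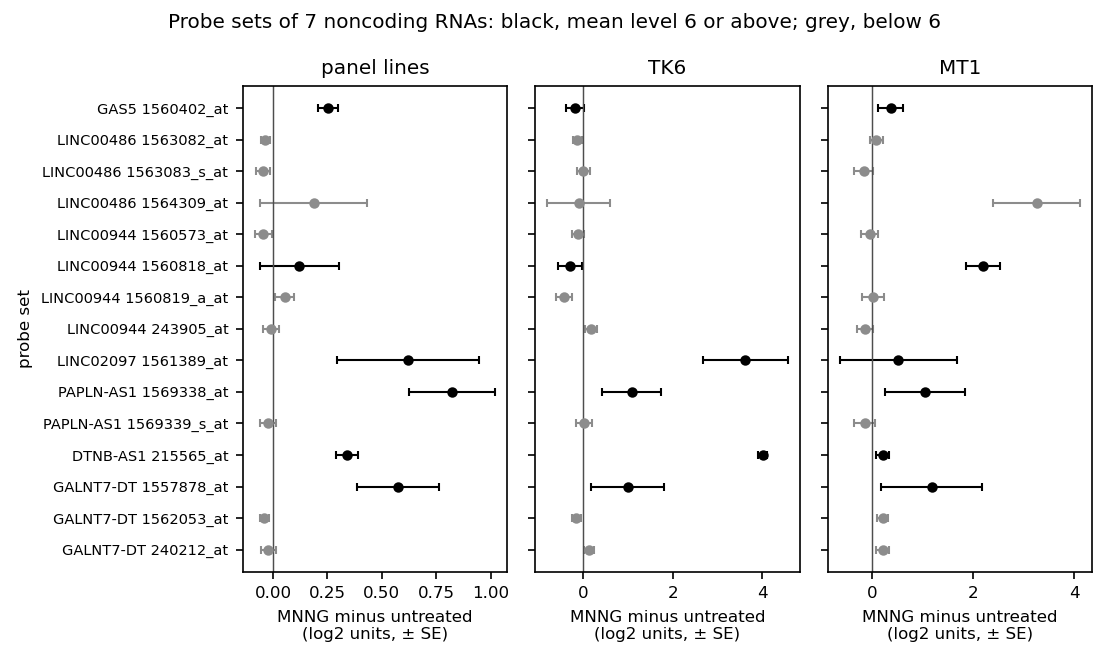
Change with MNNG, in log2 units ± SE, of the 15 probe sets of the 7 members other than MALAT1 and NEAT1, in the panel (19 lines), TK6 and MT1. Black points have a mean level of 6 or above and grey points a mean below 6; the large TK6 changes are DTNB-AS1 (4.01) and LINC02097 (3.62), and the large MT1 changes LINC00486 (3.26) and LINC00944 (2.19).

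The members were set against the other noncoding RNAs on the array, which could be tested. These are the RNAs left once the members, mostly chosen for large changes, were taken out. Of 1920 such genes 764 passed the filter on low values, and their mean levels were low (median 6.00, against 7.07 for all genes). Tests were limma's, with adjusted p over all 13842 genes and calls at 0.05. In the panel 160 rose (20.9%) and 26 fell (3.40%), against 28.7% of all genes higher and 13.8% lower. In TK6 85 rose (11.1%) and 83 fell (10.9%), against 21.6% and 19.5% of all genes. In MT1 9 rose (1.18%) and 1 fell (0.131%), against 2.36% and 1.21%. These shares were below those of all genes, the RNAs were also dimmer, and the difference was not tested. Without replicate 1, which left 10 panel lines, 28 were called in the panel. On values as deposited, without quantile normalization, the median change of all genes moved by about 0.1 to 0.3, to 0.13 for panel lines, 0.12 for TK6 and 0.31 for MT1, and changes are relative to that. The calls there were 179 higher of 184 in the panel and 58 of 77 in TK6. With arrays centred on their medians 77 of 104 panel calls were higher.

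In the panel LINC02328 rose by 0.50 ± 0.09 (adjusted p = 0.000142, 16 of 19 lines), SNHG19, a host of small nucleolar RNAs, by 0.46 ± 0.05 (adjusted p = 2.77e-07, 18 lines) and LINC01224 by 0.46 ± 0.12 (adjusted p = 0.00274, 16 lines). LINC00319 and SNTG2-AS1 each rose by 0.44. Some untreated duplicates of the first 3 disagreed outside the panel. In MT1 LINC02328 was at 6.73 and 5.52 and LINC01224 at 6.73 and 5.49. In TK6 these were at 6.82 and 7.05, and at 7.15 and 7.29. SNHG19 was at 9.50 and 8.80 in untreated TK6 and at 9.53 and 8.94 in untreated MT1. The part of replicates in these panel rises was not tested. The largest falls were MIR210HG, host of a hypoxia-induced microRNA (-0.51 ± 0.09, adjusted p = 4.56e-05), and RUSC1-AS1 (-0.47 ± 0.06, adjusted p = 3.42e-06), each in 18 of 19 lines. SLC16A1-AS1 (-0.32), LINC00528 (-0.31, all 19 lines) and SNHG4 (-0.30) followed.

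In TK6, 5 noncoding RNAs rose most. LINC01588 was at 8.34 and 8.49 with MNNG, against 5.63 and 5.56 untreated (2.83 ± 0.16, adjusted p = 1.32e-18). MAP3K5-AS2 was at 10.72 and 10.65, against 8.05 and 7.90 (2.70 ± 0.10, adjusted p = 2.76e-24). MIR3945HG rose by 1.68 ± 0.45, LINC01410 by 1.66 ± 0.66 and AFTPH-DT by 1.51 ± 0.09. For LINC01410 the MNNG arrays were at 8.22 and 7.98, against 7.48 and 5.40 untreated. Its groups did not overlap, but its untreated duplicates differed by more than its change. The largest falls were MIR210HG (-1.75 ± 0.13), MCM3AP-AS1 (-1.53 ± 0.15), PAXIP1-DT and SLC9A3-AS1 (-1.38 each), and LINC-PINT (-1.28 ± 0.09), an RNA known in mouse as a p53 target. MIR210HG fell close to the bottom of the scale, against 7.24 and 7.01 in untreated TK6.

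In MT1, NNT-AS1 (0.84 ± 0.21, adjusted p = 0.0193), LINC01215 (0.70 ± 0.16, adjusted p = 0.00714), MAP3K5-AS2 (0.69 ± 0.12, adjusted p = 0.000561), LINC00996 (0.66 ± 0.14) and MORC2-AS1 (0.63 ± 0.17) rose most. RUSC1-AS1 fell by 0.81, with a change of -0.81 ± 0.16 (adjusted p = 0.00221), at 7.94 with MNNG, against 8.61 and 8.89. RUSC1-AS1 was also called lower in TK6 (-0.72 ± 0.13). TK6 minus MT1 was called for 81 of the 764 (10.6%), against 24.7% of all genes, and untreated MT1 minus TK6 for 90 (11.8%), against 25.2%. Of the 81, 36 were higher in TK6, and with median centring 31 of 53.

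Genes with which the members share a body or a process were taken from lists. Their counts stand beside the shares of all genes called, which were 28.7% higher and 13.8% lower in the panel, 21.6% and 19.5% in TK6, and 2.36% and 1.21% in MT1. Of 8 measured RNAs linked to damage and p53, 5 rose and 0 fell in the panel (median change 0.13, against 0.04 over all genes), and 4 rose and 1 fell in TK6 (median 0.30, against -0.03). TP53TG1 rose by 0.33 ± 0.05 in all 19 panel lines (adjusted p = 4.64e-06) and by 1.42 ± 0.15 in TK6. NORAD, which holds Pumilio proteins in the cytoplasm, rose by 0.23 ± 0.03 in the panel and by 0.70 ± 0.14 in TK6, and PURPL by 0.21 ± 0.06 and 1.28 ± 0.16. Of 8 hosts of small nucleolar RNAs like GAS5, 3 rose and 1 fell in the panel (median 0.06), and 0 rose and 4 fell in TK6 (median -0.57). In TK6 the largest falls were EPB41L4A-AS1 (-0.99 ± 0.12, adjusted p = 1.77e-09), SNHG32 (-0.98 ± 0.09) and SNHG17 (-0.68 ± 0.14). In MT1 limma called 0 of 8 in each list, with 6 of 8 damage-linked RNAs and 1 of 8 hosts at an unadjusted p under 0.05.

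Of 5 other nuclear RNAs, 2 rose in the panel, DANCR (0.19 ± 0.05) and OIP5-AS1 (0.11 ± 0.03), and 2 fell in TK6, CRNDE (-1.07 ± 0.16) and OIP5-AS1 (-0.70 ± 0.13). Of 4 B-cell and immune RNAs, MIAT rose in the panel (0.11 ± 0.04) and LINC00528 fell. In TK6 LINC00926 rose by 1.02 ± 0.17 and LINC00528 fell by 0.47, a change of -0.47 ± 0.13.

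For the proteins around MALAT1 and NEAT1 the arrays read the mRNA, so the rises and falls given here are of mRNA. Over all genes, 28.7% were called higher and 13.8% lower in the panel, and 21.6% and 19.5% in TK6. Of 10 mRNAs for proteins that process the MALAT1 3′ end, 7 rose and 0 fell in the panel (median 0.21, against 0.04). They included the RNase P subunits RPP40 (0.37 ± 0.04, 19 of 19 lines, adjusted p = 3.30e-07), POP5 (0.37 ± 0.04) and POP7 (0.28 ± 0.04). In TK6 6 rose, with POP1 at 0.74 ± 0.14, and RPP38 fell (-0.47 ± 0.09), while in MT1 only POP5 was called (0.39 ± 0.11, adjusted p = 0.04). Of 22 mRNAs for nuclear speckle and SR proteins, 8 rose and 4 fell in the panel (median -0.00089), and 2 rose and 8 fell in TK6 (median -0.14). The splicing factor SRSF6 rose by 0.22 ± 0.06 in the panel, by 1.12 ± 0.11 in TK6 and by 0.50 ± 0.13 in MT1. SRSF4, a related factor, fell with changes of -0.20 ± 0.03 for panel lines, -0.79 ± 0.07 for TK6 and -0.38 ± 0.09 for MT1.

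Of 25 mRNAs for paraspeckle proteins, 6 rose and 7 fell in the panel (median 0.01), against 28.7% of all genes higher and 13.8% lower. MATR3, for a nuclear matrix RNA-binding protein, changed by -1.21 ± 0.15 (adjusted p = 1.34e-06, down in 16 of 19 lines). Its untreated duplicates were at 7.02 and 8.37 in TK6 and at 7.18 and 8.47 in MT1, further apart than this change. In TK6 MATR3 changed by 0.17 ± 0.69. The part of replicates in its panel change was not tested. NONO, for a core protein, changed by -0.26 ± 0.03, and RBM12 by -0.25 ± 0.04. In TK6 5 rose and 6 fell, among them TAF15 (-1.78 ± 0.34), RBM7 (-1.06 ± 0.11) and RUNX3 (1.12 ± 0.35), and in MT1 only the core protein SFPQ was called (0.34 ± 0.09, adjusted p = 0.0181).

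GAS5 has a 5′ terminal oligopyrimidine tract and is cleared by nonsense-mediated decay. Of 12 measured mRNAs with such a tract, 1 rose and 5 fell in the panel (median -0.03) and as many in TK6 (median -0.10). PABPC1, a poly(A)-binding protein, fell in the panel (-0.33 ± 0.03), TK6 (-0.57 ± 0.08) and MT1 (-0.81 ± 0.10). The initiation factor EIF4B fell in the panel (-0.28 ± 0.03) and TK6 (-0.77 ± 0.07). Of 7 decay factors, 2 rose (the exonuclease XRN1, 0.11 ± 0.04, and SMG9, 0.10 ± 0.04) and SMG8 fell (-0.09 ± 0.03) in the panel, and UPF2 (0.47 ± 0.08) and UPF1 (0.31 ± 0.13) rose in TK6.

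Neighbouring protein-coding genes, by RefSeq order, gave 36 genes, of which 25 were tested. In the panel 9 rose and 2 fell, in TK6 5 rose and 3 fell, and in MT1 2 rose and 0 fell. Over all genes the shares called were 28.7% higher and 13.8% lower in the panel, 21.6% and 19.5% in TK6, and 2.36% and 1.21% in MT1. The nearest gene on 1 side of NEAT1 and MALAT1, FRMD8, rose strongly in TK6, to 10.48 and 10.72 with MNNG, against 7.59 and 7.22 untreated (3.19 ± 0.23, adjusted p = 6.25e-15). It rose by 0.37 ± 0.05 in all 19 panel lines, and SLC25A45 beyond it rose by 1.55 ± 0.12 in TK6. LTBP3 on the other side was not called (panel 0.14 ± 0.06, TK6 -0.39 ± 0.21).

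The partner genes did not all follow their noncoding neighbours. PAPLN rose in TK6 (0.90 ± 0.12, adjusted p = 7.34e-08), at 7.35 and 7.41 with MNNG, against 6.55 and 6.41 untreated, but its panel change of 0.12 ± 0.06 was not called (adjusted p = 0.0956). GALNT7 rose by 0.11 ± 0.04 in the panel (adjusted p = 0.0151). SAP30, a subunit of a histone deacetylase complex near GALNT7-DT, fell in TK6 to 7.61 and 7.83, against 9.87 and 9.82 untreated (-2.12 ± 0.10), and rose in MT1 (0.50 ± 0.12, adjusted p = 0.0152). DTNB did not pass the filter on low values, so DTNB-AS1 could not be set beside it. On either side of DTNB-AS1, the DNA methyltransferase gene DNMT3A rose in TK6 (0.84 ± 0.14) and ASXL2 rose in the panel (0.37 ± 0.05) and in MT1 (0.78 ± 0.20, adjusted p = 0.0175).

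Next to LINC02097, SOX9 rose in the panel (0.18 ± 0.05) with SLC39A11 (0.20 ± 0.03, 19 of 19 lines), and neither was called in TK6, where SOX9 lay near the bottom at 5.10 and 5.29 with MNNG, against 5.27 and 5.30 untreated. Around LINC00486, BIRC6 rose in the panel (0.14 ± 0.03), and in TK6 TTC27 fell (-0.77 ± 0.10) and RASGRP3 rose (0.43 ± 0.08), but no neighbour was called in MT1. AACS near LINC00944 fell in the panel (-0.09 ± 0.02). CENPL (0.24 ± 0.05) and RC3H1 (0.15 ± 0.04), on either side of GAS5, rose in the panel, while ZBTB37, which overlaps it, was not called (0.04 ± 0.05).

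Genes whose change varied most like that of a member were listed by Pearson correlation over 21 lines, the 19 panel lines with TK6 and MT1, as a description from shared arrays. For DTNB-AS1 they were INPP1 (0.99), SFXN5 (0.98) and PARP14 (0.98), and over the 19 panel lines alone 0.91, 0.76 and 0.75. Its changes also went with the damage-induced genes CDKN1A (0.91) and MDM2 (0.89) and opposite to MYC (-0.90), and TK6 carried much of this, since over the 19 panel lines alone the values were 0.74, 0.74 and -0.55. These 3 genes themselves changed by 2.95 ± 0.08, 2.95 ± 0.15 and -2.32 ± 0.12 in TK6, against 0.09 ± 0.10, 0.50 ± 0.18 and -0.94 ± 0.15 in MT1.

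The other 7 measured members had correlations with CDKN1A of -0.60 to 0.37. For MALAT1 the value was 0.37 over 21 lines and 0.06 over the panel alone, for GAS5 -0.60 and -0.47, and for LINC02097 0.30 and -0.03. The MALAT1 correlations here are those of 1558678_s_at alone, and its 12 probe sets did not change alike. MALAT1 was most like PLPBP (0.88), RASEF (0.87) and INTS7 (0.82), and GAS5 most like INHBC (0.80), TPH1 (0.79) and FAM8A1 (0.78). GALNT7-DT was most like LDB2 (0.95), SLC6A9 (0.92) and SHROOM3 (0.92), and PAPLN-AS1 like SEC22C (0.89), ZNF169 (0.88) and LDB2 (0.88), so LDB2 was shared. GALNT7-DT, PAPLN-AS1 and LINC02097 were often low in the same arrays, and the part of this in their correlations was not tested. LINC02097 was most like FLYWCH1 (0.91), TVP23A (0.88) and HCG22 (0.87), LINC00486 like BHLHE41 (0.74), CHST3 (0.70) and IL3RA (0.66), and LINC00944 like CATSPERZ (0.80), FOXN3-AS1 (0.74) and SLC7A14 (0.73).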

How the data were processed

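Biotin-labelled cRNA from 26 lymphoblastoid lines was hybridised to arrays of 54675 probe sets. The deposited values are intensities on a linear scale, made by the authors with PLIER per the submitters' processing notes; its version was not given in the sources used here. They range from a floor of 16 to 65535, with array medians of 16.0 to 64.4, and 71 values reach the top, 0 of them from members. Intensities were taken as log2(value + 16) and quantile normalized with limma 3.58.1 (R 4.3.3, with version 1.17.8 of the package data.table); figures used Python 3.11.15 and matplotlib 3.10.9. Of the probe sets, 41097 had 1 symbol, 1801 several and 11777 none. The brightest probe set stood for a gene, and the lowest 30% of genes were left out. For LINC01588, SNHG19, TP53TG1, PABPC1, SAP30, CENPL and LTBP3 its name ends in _x_at, so it can bind other sequences. For the panel, the mean of a line's duplicates entered, with lines as blocks. TK6, MT1 and their differences were contrasts in a model with a mean per group (35 residual degrees of freedom). Standard errors are moderated, and adjusted p-values are limma's with Benjamini-Hochberg over all genes. Member probe sets were fitted with every single-symbol probe set, without the filter. The fits were tested on simulated data. The number of arrays limits precision.

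The members, lists and the array rule were chosen with earlier results of these data known. Genes were named by rule: members, neighbours, the largest called changes in a list, at most 3 per comparison, the 5 largest called rises and falls among other noncoding RNAs, and the 3 genes with the highest correlation to each member. Promoter windows and gene order are from RefSeq (GRCh38.p14). Alternatives covered the arrays kept, normalization, pseudocount, filter, probe sets, trend, block and replicates.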

Additional observations from a re-analysis of the deposited data

Results flagged for a closer look

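Probe sets that the annotation assigns to several symbols were not used in the report, but some carried signal. Of 9 annotated jointly to MIR612 and NEAT1, the brightest, 224565_at, had a median of 9.50 in panel MNNG arrays, against 9.34 untreated, with a mean change of 0.26 ± 0.06. Others of the 9 went the other way in the panel, such as 238320_at (-0.52 ± 0.06, lower in 19 of 19 lines) and 225239_at (-0.41 ± 0.09). In TK6 225239_at was at 9.88 and 9.96 with MNNG, against 8.85 and 8.71 untreated (1.14 ± 0.15), and in MT1 at 7.18, against 8.07 and 7.60 (-0.66 ± 0.19). Of 4 annotated jointly to small nucleolar RNAs and GAS5, the brightest, 224741_x_at, had a median of 11.43 with MNNG, against 11.42 untreated, a change of 0.033 ± 0.025. A dimmer one, 227517_s_at, changed by 0.20 ± 0.05 in the panel and by -0.97 ± 0.16 in TK6.

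Responses of 8 named noncoding RNAs differed between TK6 and MT1 by limma's test of the difference. They were higher in TK6 for LINC01588 (TK6 minus MT1, 2.68 ± 0.25, adjusted p = 2.22e-11), MAP3K5-AS2 (2.02 ± 0.16, adjusted p = 2.70e-13) and AFTPH-DT (1.27 ± 0.15, adjusted p = 5.22e-09). They were lower in TK6 for MIR210HG (-1.68 ± 0.20, adjusted p = 1.29e-08), MCM3AP-AS1 (-1.44 ± 0.24, adjusted p = 7.53e-06), PAXIP1-DT (-1.35 ± 0.19, adjusted p = 4.87e-07), LINC-PINT (-0.96 ± 0.14, adjusted p = 8.28e-07) and NNT-AS1 (-0.78 ± 0.28, adjusted p = 0.0334). MIR210HG was already at the bottom of the scale in both untreated MT1 arrays, so a fall could not be measured there. All of these rest on 1 MT1 MNNG array and on the TK6 MNNG arrays that stood apart. The LINC01588 probe set, whose name ends in _x_at, can also bind other sequences.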

How the results depend on the processing

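Against 186 noncoding RNAs called in the panel, 168 in TK6, 10 in MT1, 81 for TK6 minus MT1 and 90 for untreated MT1 minus TK6, all 104 arrays gave 526, 18, 0, 2 and 9. Values as deposited gave 77 in TK6, 2 in MT1, 14 for TK6 minus MT1 and 24 for untreated MT1 minus TK6. Median centring gave 104 in the panel, 0 in MT1 and 53 for TK6 minus MT1, and a 50% filter 112 in the panel, 107 in TK6 and 58 for the untreated lines. Where limma called 0 in MT1, 52 had an unadjusted p under 0.05 with all arrays and 40 with median centring. Replicate numbers did not pair arrays: over 9 lines with all 4 arrays, differences between duplicates correlated at -0.62 to 0.14 between treatments, over 0.1 in 2. A replicate block gave 4 in MT1 and 43 for the untreated lines, and 150, 139 and 59 in the panel, TK6 and TK6 minus MT1. Leaving out a replicate gave 28 to 136 in the panel, 116 to 121 in TK6, 7 in MT1, 60 for TK6 minus MT1 and 60 to 67 for the untreated lines; without replicate 1 only 10 panel lines remain. Leaving out 9 arrays with medians near the bottom of the scale, an alternative added after seeing the data, gave 190 in the panel and kept 17 lines. Of the alternative values of member changes, 268 moved by less than the spread and 35 by more, beside 1 that turned from over 2 SE above 0 to below 0: DTNB-AS1 in the panel was -1.37 with all arrays. With it, 15 changed sign; the others were within 2 SE of 0 as reported, such as LINC00944 in the panel (-0.56 with all arrays, -0.22 without replicate 1). Large moves included MALAT1 in TK6 (-1.43 and 1.45 without replicates 1 and 2), GALNT7-DT in TK6 (-0.43 and 2.41), MALAT1, LINC00944 and GALNT7-DT in MT1 (-0.77, 1.13 and -0.01) and LINC00486 in the panel (1.31) with all arrays, GALNT7-DT and PAPLN-AS1 in MT1 with a replicate block (2.17 and 1.88), and averaging all probe sets, which gave -0.60 for MALAT1, 0.40 for PAPLN-AS1 and 0.17 for GALNT7-DT in the panel, and 1.06 for LINC00486 and 0.50 for LINC00944 in MT1. The causes were not tested. Signal over background limits the probe sets with mean levels below 6, whose small changes cannot be read.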
